A study of Mus musculus with 50 samples.

Results

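Egr1, Egr2, Egr3, Nr4a1, Nr4a2, Nr4a3, Arc, Btg2 and Ier2 are genes that neurons and glia switch on within minutes to hours of stimulation. These 9 genes, of 21911 protein-coding genes on chromosomes 1 to 19, X and Y, were taken by name, and every peak of glucocorticoid receptor (GR) or NFIA binding whose summit lay within 50 kb of a gene's start was collected. The data are CUT&RUN peak lists. CUT&RUN tethers a nuclease to an antibody on chromatin and sequences the short fragments it releases, so a peak marks a stretch of DNA where the antibody's target was enriched over an IgG control, and no RNA was measured. Positions are those of the mouse build mm10 with GENCODE M21 gene starts.

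GR was profiled in astrocytes of primary visual cortex (V1) at postnatal day 14 from dark-reared (DR) and normally reared (NR) mice, with 3 libraries each. Both were wild-type (WT) mice injected at P0–P1 with an AAV2/5 vector in which the astrocyte promoter GfaABC1D drives ΔCre, a Cre without activity, and a nuclear EGFP-KASH tag, and green nuclei were sorted. GRfl/fl mice, normally reared, received the vector with active Cre in place of ΔCre (GR-KO, 2 libraries) or the ΔCre vector itself (GR-con, 2 libraries). Other V1 cells of NR mice were sorted by a Sun1-GFP nuclear tag switched on by Olig2-Cre in oligodendrocytes, by Slc32a1-Cre in inhibitory neurons (InN) and by Slc17a7-Cre in excitatory neurons (ExN), with 3 GR libraries each. NFIA was profiled in NR astrocytes and in those 3 other cell types (3 libraries each). Each V1 library came from 175000 nuclei and pooled several mice. 3T3 cells, a mouse fibroblast line, were given 200 nM dexamethasone (DEX, a synthetic glucocorticoid) or ethanol vehicle for 2 h, and GR was profiled from 50000 or 250000 nuclei (2 libraries for each combination). Astrocytes were thus labelled by a virus and the other V1 cells by transgenes, so cell type and labelling cannot be told apart.

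The EGR proteins are zinc-finger transcription factors and the NR4A proteins are orphan nuclear receptors. Both families are immediate early genes, transcribed without new protein synthesis through factors such as SRF and CREB that are already in the nucleus, and Egr1 and Arc are widely used as marks of recent neuronal activity in cortex. Arc encodes a cytoskeletal protein of synapses, Btg2 an antiproliferative co-regulator of mRNA decay, and Ier2 a nuclear protein of the immediate early response. GR is a hormone-activated nuclear receptor, and NFIA is a transcription factor of the nuclear factor I family that specifies astrocytes.

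Peaks lay near these genes mainly in NR astrocytes, for GR in replicates 1 and 3 and for NFIA in every replicate. The GR libraries of NR astrocytes held 19, 1 and 34 peaks near the 9 genes, in lists of 14012, 2262 and 21539 peaks, and the 3 GR libraries of DR astrocytes held none, in lists of 69, 28 and 293. NFIA in NR astrocytes gave 35, 37 and 36 such peaks in lists of 22373 to 27143. A peak in at least 2 of 3 GR libraries of NR astrocytes was found at 7 of the 9 genes, where 51.4% of all protein-coding genes had one, and for NFIA at 9 of 9, where 66.0% of all genes had one. The exceptions for GR were Egr2, with a peak in replicate 3 only, and Nr4a2, with none.

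**Figure D1:**
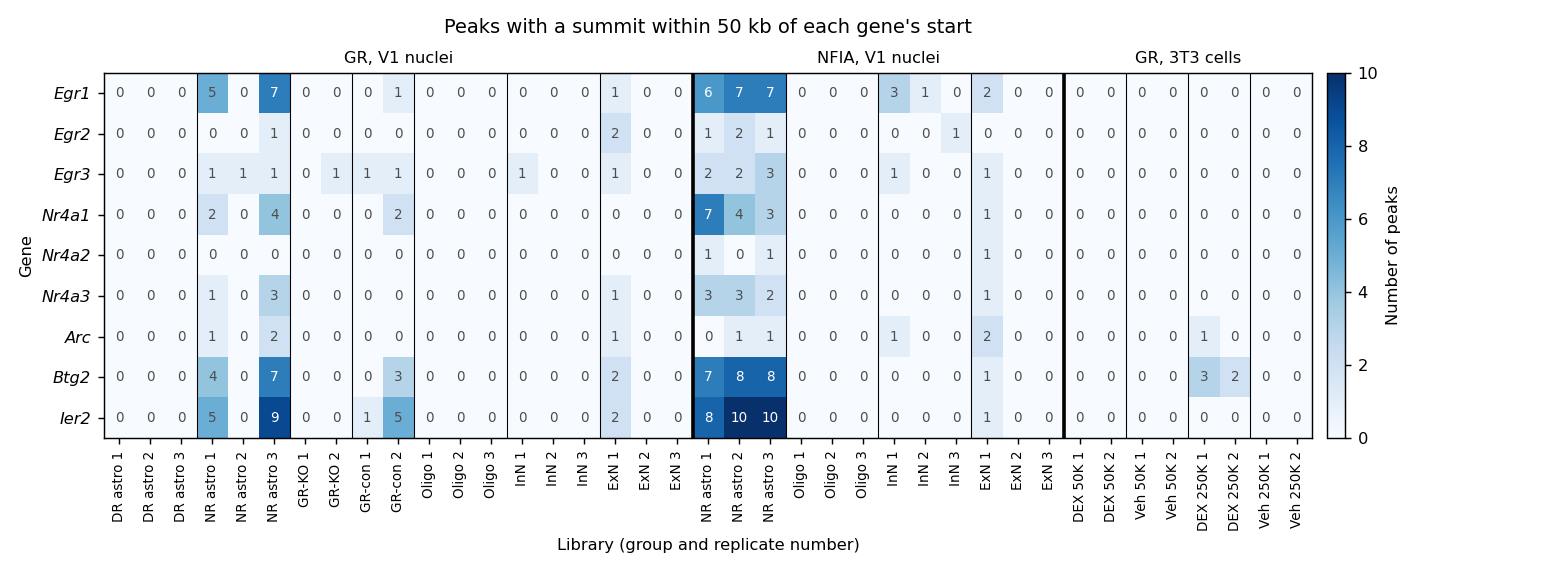
Number of peaks with a summit within 50 kb of each gene's start (rows) in each of 39 libraries (columns, by group and replicate number). The counts reach 10 at Ier2 with NFIA in NR astrocytes, DR astrocytes are at 0 throughout, and the excitatory neuron counts come from replicate 1 alone.

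The remaining groups had few such peaks. GR-con astrocytes had a peak in both libraries at 2 of 9 genes, Egr3 and Ier2, against 23.8% of all genes, and GR-KO astrocytes at 0 of 9, against 0.954%. Among other V1 cells, a peak in at least 2 libraries was found for GR at 0 of 9 genes in ExN (9.69% of all genes) and 0 of 9 in InN (6.36%). For NFIA it was 0 of 9 in ExN (2.09%) and 1 of 9, Egr1, in InN (5.08%). Oligodendrocytes had no peak near any of the 9 genes in 3 GR and 3 NFIA libraries. With 250000 nuclei, both DEX 3T3 libraries had a peak at 1 of 9 genes, Btg2, against 11.3% of all genes.

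The lists differed widely in size. Over all 39 libraries the lists held between 1 and 27143 peaks, and oligodendrocyte lists held 4 to 722. Of 8 astrocyte markers, 7 or 8 had a GR peak within 50 kb in NR astrocytes and 8 in GR-con, while 0 to 5 did in DR astrocytes, 0 to 6 in GR-KO and at most 1 in other V1 cells. InN libraries had GR peaks at 0 to 5 of 6 inhibitory markers and ExN libraries at 0 to 2 of 6 excitatory markers. In oligodendrocyte libraries 0 of 6 oligodendrocyte markers had a peak for GR or NFIA, where 0.0228% to 6.83% of all genes had one. With lists this short, binding near those markers cannot bear on the label. NR astrocyte GR libraries also had peaks at 2 to 5 of 6 oligodendrocyte markers and 0 to 4 of 6 excitatory markers. They had peaks at 0 to 4 of 5 microglial markers and 0 to 2 of 6 inhibitory markers. For endothelial and mural markers the count was 0 to 3 of 5, and for fibroblast markers 0 to 1 of 5. A GR peak within 50 kb was found at 52.1%, 12.003% and 63.6% of all genes in NR replicates 1 to 3. The marker counts are to be read against those shares. The part of other cells in the NR peaks was not tested.

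Of the 9 genes, Ier2 had the highest mean number of peaks within 50 kb in NR astrocytes, for both GR and NFIA. The gene lies on the minus strand of chromosome 8 (84661331 to 84662852). GR peaks within 50 kb numbered 5, 0 and 9 in NR astrocytes, 1 and 5 in GR-con and 0 in DR and GR-KO astrocytes, and NFIA peaks numbered 8, 10 and 10 in NR astrocytes. Of all genes, 2.80% had at least as many GR peaks as Ier2 in NR replicate 3. The site called in most libraries lay 1.2 kb upstream of the start, outside any annotated gene, at chr8:84663966-84664269, and was called in 9 libraries, of GR in NR astrocytes (2), GR-con (2) and ExN (1) and of NFIA in NR astrocytes (3) and ExN (1). Its fold enrichment over IgG was 8.39 and 11.4 for GR in NR replicates 1 and 3, against 15.3, 25.8 and 13.4 for NFIA in NR replicates 1 to 3. Folds of different lists, here and below, are not on a common scale, and a difference between them is not a measure of binding. A second site covered the promoter itself, at chr8:84662825-84662966, 38 bp upstream of the start, with a GR fold of 13.9 in NR replicate 1 and 13.4 in replicate 3 against 3.78 in GR-con replicate 2. The first of these folds ranked 557th of 14012. Farther sites lay 23.3 kb downstream, in an exon of Cacna1a (fold 10.9 and 17.1 for GR in NR replicates 1 and 3), and 46.1 and 49.7 kb upstream, in introns of Nfix. The 49.7 kb site held the highest NFIA fold near any of the 9 genes, 26.7 in replicate 3, ranked 170th of 22373. Both of those Nfix sites are closer to the start of another protein-coding gene than to Ier2. The order of the genes depended on how peaks were assigned. With peaks given only to the nearest protein-coding start, mean log2(peaks + 1) of GR in DR minus NR astrocytes was -1.44 at Ier2. It was -1.72 at Egr1 and -1.64 at Btg2. With a 10 kb window it was -1.06 at Ier2, -1.33 at Egr1 and -0.67 at Btg2. The summit windows of the first and second site, 100 bp on the plus strand of GRCm38.p6 (the assembly of mm10), are shown because GR and NFIA were both called there. Capitals mark a cyclic AMP response element (CRE), TGACGTCA, the site of CREB, and the first window held none of the 9 motifs searched.
Ier2 upstream site, chr8:84664007-84664106: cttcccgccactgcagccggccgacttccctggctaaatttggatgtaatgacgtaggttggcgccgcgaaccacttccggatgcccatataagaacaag
Ier2 promoter site, chr8:84662840-84662939: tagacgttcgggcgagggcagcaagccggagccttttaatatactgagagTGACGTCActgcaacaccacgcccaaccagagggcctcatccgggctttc

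Btg2 was bound on both sides of its start and was the single gene of the 9 with reproducible GR peaks in 3T3 cells. It lies on the minus strand of chromosome 1 (134075170 to 134079120). GR peaks numbered 4, 0 and 7 in NR astrocytes, 0 and 3 in GR-con, 0 in DR and GR-KO astrocytes and 2, 0 and 0 in ExN, and NFIA peaks numbered 7, 8 and 8 in NR astrocytes. The promoter site, 18 bp upstream of the start at chr1:134079046-134079374, had a GR fold of 6.10 and 9.42 in NR replicates 1 and 3 against 4.63 in GR-con replicate 2. Between 15.5 and 18.1 kb downstream lay 3 intergenic sites called in both of those NR libraries. The one at 16.2 kb (chr1:134062753-134063040) had an NFIA fold of 17.0, 13.5 and 21.5 in NR replicates 1 to 3, and a GR fold of 5.94 and 8.40 in NR replicates 1 and 3. The one at 18.1 kb (chr1:134060906-134061140) was called in 8 libraries, ExN replicate 1 included for both GR and NFIA. Their windows follow, with an NFI half-site in capitals (TTGGCA read on the other strand).
Btg2 18.1 kb downstream, chr1:134061003-134061102: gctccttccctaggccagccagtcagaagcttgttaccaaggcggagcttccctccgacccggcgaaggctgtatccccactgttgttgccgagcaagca
Btg2 16.2 kb downstream, chr1:134062821-134062920: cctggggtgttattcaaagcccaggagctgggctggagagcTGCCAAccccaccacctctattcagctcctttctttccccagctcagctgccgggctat

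In 3T3 cells with 250000 nuclei, Btg2 had 3 and 2 GR peaks in the DEX libraries and 0 and 0 in the vehicle libraries. With 50000 nuclei all 4 libraries had 0. At 250000 nuclei Btg2 was the 1 of 9 genes with more peaks in every DEX library than in every vehicle library, against 9.02% of all genes, and over both numbers of nuclei 0 of 9 met that rule, against 1.25%. The mean log2(peaks + 1) of Btg2 was 0.90 higher with DEX (exact permutation p = 0.333 over 36 arrangements within nuclei number, the smallest possible being 0.0556). Its 2 sites called in both DEX libraries lay 20.2 kb upstream (chr1:134099125-134099421) and 24.9 kb upstream (chr1:134103959-134104054), nearer to the start of Chit1 than to Btg2. At 20.2 kb the DEX fold was 4.88 and 8.07, and peaks of GR in NR replicate 3 (fold 2.51) and of NFIA in NR replicate 2 (fold 3.31) overlapped it. No V1 library had a peak at the 24.9 kb site. The remaining 3T3 peaks near the 9 genes were 1 at Btg2 and 1 at Arc, both in DEX replicate 1. The windows of both DEX sites, chosen after their values were seen, held none of the motifs searched.
Btg2 20.2 kb upstream, chr1:134099225-134099324: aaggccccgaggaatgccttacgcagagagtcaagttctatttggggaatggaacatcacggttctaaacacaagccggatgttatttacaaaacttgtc
Btg2 24.9 kb upstream, chr1:134103968-134104067: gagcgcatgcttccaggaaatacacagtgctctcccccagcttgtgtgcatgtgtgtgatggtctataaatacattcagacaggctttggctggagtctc

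Egr3 had the most widely called single site of the EGR genes. Egr3 lies on the plus strand of chromosome 14 (70077203 to 70082614). Its site 36.2 kb upstream, in an intron of Pebp4 at chr14:70040911-70041140, was called in all 3 GR libraries of NR astrocytes, both of GR-con and all 3 of NFIA in NR astrocytes, and in no other library. It was the only peak near any of the 9 genes in NR replicate 2, where its fold of 4.68 ranked 1721st of 2262. The GR fold was 9.87 and 7.003 in NR replicates 1 and 3, against 3.83 and 3.35 in GR-con. The NFIA folds there were 12.4, 7.91 and 9.22 in NR replicates 1 to 3. The only peak near the 9 genes in either GR-KO library was also at Egr3, in replicate 2, with a fold of 5.49, and did not overlap that site. It lay at the Egr3 promoter, 398 bp upstream of the start, and overlapped a GR peak of ExN replicate 1 (fold 2.93). Egr2, which is needed for peripheral myelination, lies on the plus strand of chromosome 10 (67535475 to 67542188). It had GR peaks in NR replicate 3 (1) and in ExN replicate 1 (2), and 1, 2 and 1 NFIA peaks in NR astrocytes. The site shared by 5 libraries lay 13.6 kb downstream and 118 bp from the start of its neighbour Ado, at chr10:67548972-67549142. A site 2.3 kb downstream of the gene's 5′ end and 90 bp upstream of another annotated Egr2 start was called for NFIA in NR replicate 2 and InN replicate 3. Windows of these 3 sites follow, with a serum response element (SRE, the CArG box bound by SRF) in capitals.
Egr3 36.2 kb upstream, chr14:70040952-70041051: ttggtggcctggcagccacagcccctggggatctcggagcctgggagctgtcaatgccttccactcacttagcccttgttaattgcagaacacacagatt
Egr2 13.6 kb downstream, chr10:67549023-67549122: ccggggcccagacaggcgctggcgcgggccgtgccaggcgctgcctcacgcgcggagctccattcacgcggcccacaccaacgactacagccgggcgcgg
Egr2 2.3 kb downstream, chr10:67537729-67537828: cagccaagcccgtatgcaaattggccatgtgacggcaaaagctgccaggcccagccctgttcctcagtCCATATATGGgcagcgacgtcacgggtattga

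The numbers of peaks differed among the Nr4a genes. Nr4a1 (Nur77) had 2, 0 and 4 GR peaks in NR astrocytes and 0 and 2 in GR-con, with 7, 4 and 3 NFIA peaks in NR astrocytes. Nr4a3 (Nor1) had 1, 0 and 3 GR peaks in NR astrocytes and 3, 3 and 2 NFIA peaks, and Nr4a2 (Nurr1), a factor needed for midbrain dopamine neurons, had no GR peak in any library. At Nr4a1, on the plus strand of chromosome 15 (101254269 to 101274795), the main site lay 12.5 kb into the gene and 124 bp upstream of another of its annotated starts, at chr15:101266536-101266935. Its GR fold was 10.4 in both NR replicates 1 and 3 against 5.66 in GR-con replicate 2, and its highest NFIA fold in NR replicates 1 to 3 was 6.28, 10.3 and 10.1. Nr4a3 lies on the plus strand of chromosome 4 (48045153 to 48086447), and its site called in most libraries lay 1.8 kb upstream of the start, intergenic, at chr4:48042879-48043640. A promoter site 400 bp upstream of the Nr4a3 start was called for NFIA in NR replicates 1 to 3 (folds 10.2, 6.88 and 4.29). GR was called there in NR replicate 3 (fold 5.12). In ExN replicate 1 the Nr4a3 peak was at the start itself, 6 bp upstream, for GR (fold 4.55), with an NFIA peak overlapping it in ExN replicate 1 (fold 3.99). Nr4a2, on the minus strand of chromosome 2 (57106830 to 57124003), had NFIA peaks at its promoter, 155 bp upstream of the start at chr2:57124143-57124286, in NR replicates 1 and 3 with folds of 4.96 and 3.90. The windows of the main Nr4a1 and Nr4a3 sites and of the Nr4a2 promoter held none of the motifs searched.
Nr4a1 12.5 kb downstream, chr15:101266672-101266771: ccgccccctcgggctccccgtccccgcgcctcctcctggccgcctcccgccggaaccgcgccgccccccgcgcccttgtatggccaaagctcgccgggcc
Nr4a3 1.8 kb upstream, chr4:48043305-48043404: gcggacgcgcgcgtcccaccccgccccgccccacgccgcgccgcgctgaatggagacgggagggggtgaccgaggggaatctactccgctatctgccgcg
Nr4a2 promoter, chr2:57124108-57124207: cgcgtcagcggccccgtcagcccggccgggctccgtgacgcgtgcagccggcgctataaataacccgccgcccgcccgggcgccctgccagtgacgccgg

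Arc carried different peaks in astrocytes and in excitatory neuron replicate 1, the only ExN replicate with a peak near it. The gene lies on the minus strand of chromosome 15 (74669083 to 74672570). GR in NR astrocytes gave 1, 0 and 2 peaks, and NFIA 0, 1 and 1. The site called in most libraries (2 of GR and 2 of NFIA, all NR astrocytes) was 48.5 kb upstream and 117 bp from the start of Them6, at chr15:74721011-74721234, with GR folds of 4.36 and 5.35. In ExN replicate 1, GR and NFIA each had a peak 6.7 kb upstream of Arc, at chr15:74679195-74679341, with folds of 5.84 for GR and 4.09 for NFIA. No astrocyte library had a peak there. NFIA peaks also lay at the Arc promoter. They were 130 bp upstream of the start in ExN replicate 1 (fold 2.75) and 21 bp downstream in InN replicate 1 (fold 3.90). The ExN site 6.7 kb upstream ranked 906th of 4563 in the GR list and 2138th of 4173 in the NFIA list. Its window holds an SRE, in capitals.
Arc 48.5 kb upstream, chr15:74721037-74721136: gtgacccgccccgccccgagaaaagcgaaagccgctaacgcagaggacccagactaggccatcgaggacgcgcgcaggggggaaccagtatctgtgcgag
Arc 6.7 kb upstream, chr15:74679225-74679324: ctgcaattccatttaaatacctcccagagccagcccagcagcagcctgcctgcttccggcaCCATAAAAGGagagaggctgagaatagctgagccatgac

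Few of the peaks near the 9 genes carried the searched motifs. The motifs were the full glucocorticoid response element (GRE) by name, a looser GRE pattern, ACANNNTGT, the NFI half-site TTGGCA and the full NFI site by name, AP-1 (TGANTCA), CRE (TGACGTCA), the EGR site GCGTGGGCG, the NR4A site AAAGGTCA and the SRE by name, on both strands. A full GRE contains the letters of ACANNNTGT, so a window can count under more than 1 motif. A full NFI site need not contain TTGGCA. In NR replicate 3, 0 of 34 GR summit windows near the 9 genes held ACANNNTGT, where 2.33% of all 21539 windows of that list did, and 5 of 34 held the NFI half-site, where 12.1% did. In the NFIA list of NR replicate 3 the half-site was in 6 of 36 windows, where 15.8% of the list had it. An SRE was in 1 of 34 GR windows of NR replicate 3 and in 2 of 10 of ExN replicate 1, where the lists had it in 0.483% and 0.701%. In NR replicate 1 it was in 2 of 19 GR windows (0.450% of the list). For NFIA in NR replicates 1 to 3 it was in 1 of 35, 2 of 37 and 3 of 36 (0.560%, 0.535% and 0.527%). In DEX 3T3 replicate 1, ACANNNTGT was in 0 of 4 windows near Btg2 and Arc and in 10.4% of the list. A match describes the letters of a window and is no evidence of binding to them.

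Egr1 had its strongest GR peak downstream of its first start, at another annotated start. Egr1 lies on the plus strand of chromosome 18 (34859823 to 34864984). GR peaks numbered 5, 0 and 7 in NR astrocytes, 0 and 1 in GR-con, 0 in DR and GR-KO astrocytes and 1, 0 and 0 in ExN, and NFIA peaks numbered 6, 7 and 7 in NR astrocytes, 3, 1 and 0 in InN and 2, 0 and 0 in ExN. At 1.3 kb downstream of the start (34860682 to 34861230), 46 bp upstream of another annotated Egr1 start and with an SRE in the summit window, the GR fold was 14.3 in NR replicate 1 and 20.4 in replicate 3, ranked 481st of 14012 and 462nd of 21539. The last was the highest GR fold near any of the 9 genes. NFIA was called at that site in all NR libraries, with a highest fold of 8.84, 19.6 and 16.5. The site at the gene's first start (34859770 to 34860096), 118 bp downstream of it, was called in 7 libraries, with GR folds of 7.48 and 9.57 in NR replicates 1 and 3, against 4.62 in GR-con replicate 2. Intergenic sites lay 26.0 and 27.7 kb downstream. The second of them (34887405 to 34887675) had NFIA folds of 21.7, 20.5 and 15.8 in NR replicates 1 to 3, GR folds of 8.71 and 11.96 in NR replicates 1 and 3, and NFIA peaks in InN replicates 1 and 2.

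**Figure D2:**
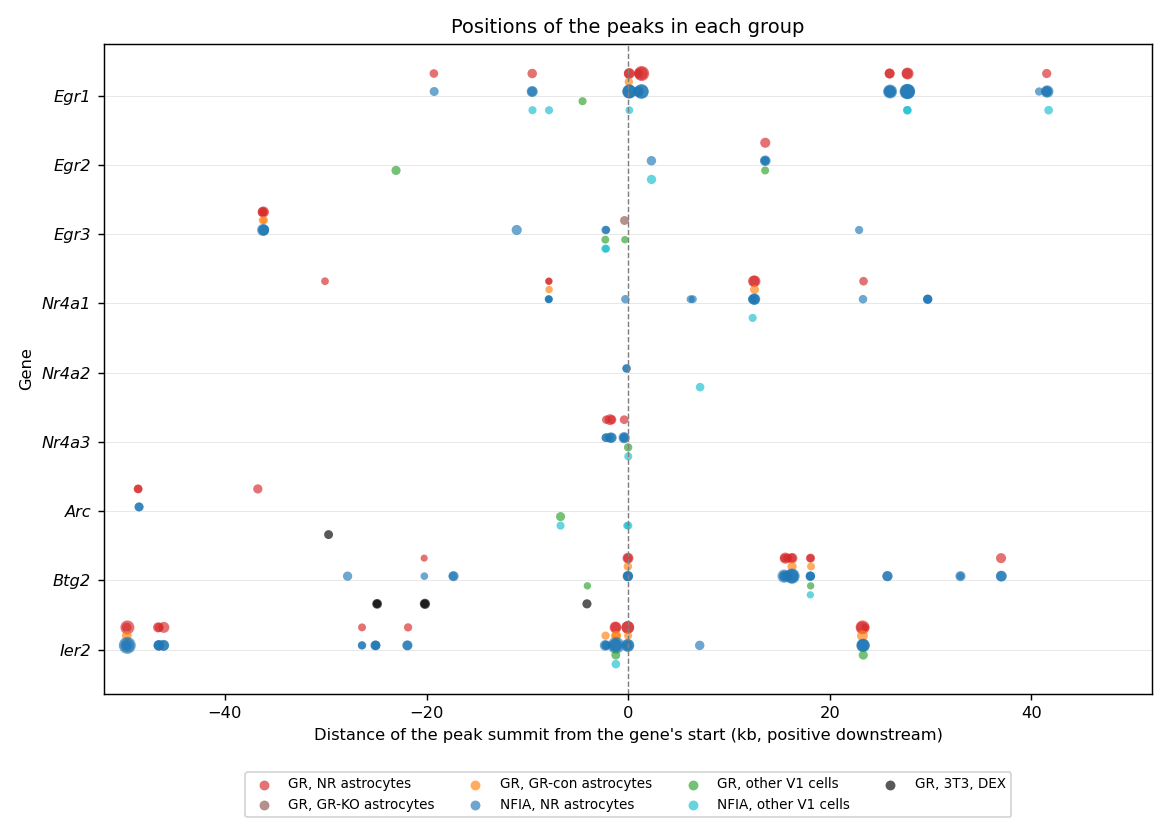
Position of every peak summit relative to the gene's start (x axis, kb, positive downstream) for the 9 genes (rows), coloured by group, with larger points for a higher fold. Most GR peaks of NR astrocytes stand above an NFIA peak of NR astrocytes. The Arc peaks of excitatory neurons (6.7 kb upstream, and for NFIA also 130 bp upstream) do not coincide with the astrocyte peaks. DR astrocytes and vehicle 3T3 cells have no point.

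Dark and normal rearing were compared to ask whether GR sits near these genes without visual experience. No DR library had a peak near any of the 9 genes, and 8 of 9 had one in at least 1 NR library. The counts in DR were 0, 0 and 0 for Ier2, Egr1 and Btg2, against 5, 0 and 9 for Ier2, 5, 0 and 7 for Egr1 and 4, 0 and 7 for Btg2 in NR replicates 1 to 3. At these 3 genes the groups overlapped, because NR replicate 2 was at 0 too. Only Egr3, with 0 in every DR library and 1 in every NR library, was lower in all DR libraries, 1 of 9 genes where 10.6% of all genes met that rule. The mean log2(peaks + 1) of Egr3 was 1.00 lower in DR (exact two-sided permutation p = 0.1, the smallest that 3 against 3 allows, adjusted p = 0.780 over 21911 genes). Without NR replicate 2 the count was 7 of 9, where 50.7% of all genes met the rule. The median difference over the 9 genes fell by 1.00 on the log2 scale in DR, against a fall of 0.67 over all genes. The DR lists are so short that 0.333%, 0.178% and 1.50% of all genes had any peak in them, and the 0 of 9 genes is to be read against those shares.

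Deletion of the receptor was compared with its control to ask which of the peaks depend on GR. Peaks near the 9 genes numbered 0 and 1 in GR-KO libraries, in lists of 1846 and 413 peaks, against 2 and 12 in GR-con libraries, in lists of 7761 and 6792. In the GR-KO lists 6.56% and 2.67% of all genes had a peak. Per 10000 peaks of the list there were 0 and 24.2 near the 9 genes in GR-KO, against 2.58 and 17.7 in GR-con, and so GR-KO replicate 2, with its single peak, was above both GR-con libraries on that scale. Ier2 had 0 and 0 in GR-KO against 1 and 5 in GR-con, and was the 1 of 9 genes lower in every GR-KO library, where 20.0% of all genes were. Its mean log2(peaks + 1) was 1.79 lower in GR-KO (exact permutation p = 0.333, the smallest that 2 against 2 allows). Egr3 had 0 and 1 peaks in GR-KO and 1 and 1 in GR-con, a difference of -0.50 that became 0.50 with a 10 kb window. Without GR-con replicate 1 the count was 4 of 9 (Egr1, Nr4a1, Btg2 and Ier2), where 30.5% of all genes met the rule, and without GR-KO replicate 2 it was 2 of 9 (Egr3 and Ier2), where 20.8% did. In the GR-con libraries 2 and 5 of the 9 genes had a peak, where 31.7% and 33.8% of all genes did. Of the 12 peaks in GR-con replicate 2, 11 overlapped a GR peak of an NR library, and 95.5% of that whole list did.

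Astrocytes were compared with other V1 cells to ask whether binding at these genes is a property of 1 cell type. For GR the answer rested on few libraries. The mean number of peaks per library was 4.67 in NR astrocytes and 0.222 in other V1 cells at Ier2, 4.00 and 0.111 at Egr1, 3.67 and 0.222 at Btg2, and 1.00 and 0.222 at Egr3. Egr1, Egr3, Nr4a1, Btg2 and Ier2 had an exact permutation p of 0.0455 over 220 arrangements of 3 against 9 libraries, with an adjusted p of 0.130 over all genes. None of the 9 genes, and 0 of 21911 genes, passed an adjusted p of 0.05, while 7677 genes had an unadjusted p under it. None of the 9 had more peaks in every NR library than in every other library, where 4.52% of all genes did. Without NR replicate 2, 4 of the 9 (Egr1, Nr4a1, Btg2 and Ier2) met that rule, where 37.9% of all genes did, and the same 4 passed an adjusted p of 0.05. The sign of the GR difference turned with a 10 kb window at Egr3 (-0.22) and Arc (-0.11) and with the top 500 peaks of each list at Egr1 (-0.11).

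For NFIA, 6 of the 9 genes had more peaks in every NR astrocyte library than in every library of other V1 cells, where 50.3% of all genes did. They were Egr1, Egr3, Nr4a1, Nr4a3, Btg2 and Ier2. Ier2 had a mean of 9.33 peaks in NR astrocytes and 0.111 in other V1 cells, a difference of 3.25 in mean log2(peaks + 1). That of Btg2 was 3.00 and that of Egr1 was 2.43. Each of the 6 had an exact permutation p of 0.00455, the smallest possible, and an adjusted p of 0.00904. Egr2 passed the same exact test as well (1.33 peaks in NR astrocytes and 0.111 in other V1 cells, adjusted p = 0.0247), so 7 of 9 passed, with 12923 of 21911 genes. By the exact permutation test Nr4a2 (0.667 peaks in NR astrocytes and 0.111 in other V1 cells, adjusted p = 0.195) and Arc (0.667 and 0.333 peaks, adjusted p = 0.707) did not pass, and the difference of Arc was 0.38, but -0.29 with a 10 kb window. The median difference over the 9 genes was 1.75, and over all genes 1.08.

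Excitatory neuron replicate 1 stood apart from the other libraries of its group for both proteins. In its GR list of 4563 peaks, 7 of the 9 genes (77.8%) had a peak, where 27.9% of all genes did, and in its NFIA list of 4173 peaks 8 of 9 (88.9%) did, where 28.4% did. ExN replicates 2 and 3 had no peak near any of the 9 genes in lists of 61 and 1644 GR peaks and of 246 and 1 NFIA peaks. Of the 10 GR peaks of ExN replicate 1 near the genes, 4 overlapped an NFIA peak of ExN replicate 1, where 32.7% of the GR list did, and 4 overlapped a GR peak of NR astrocytes, where 39.5% did. Astrocyte markers had a peak in at most 1 of 8 cases in ExN libraries. With 1 library, these shares have no replicate.

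**Figure D3:**
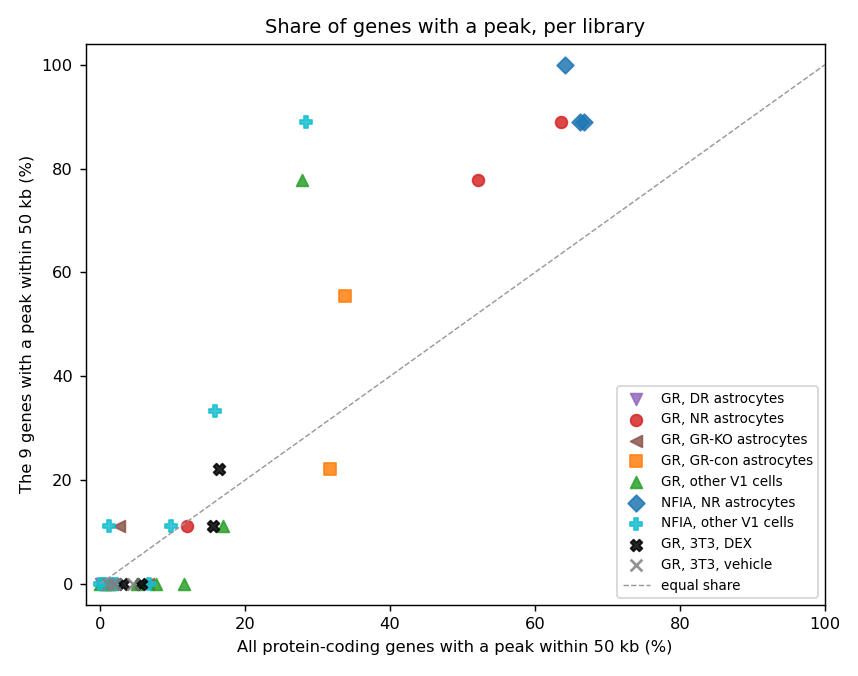
Share of the 9 genes with a peak within 50 kb (y axis, %) against the share of all 21911 protein-coding genes (x axis, %), one point per library. Excitatory neuron replicate 1 lies farthest above the dashed line of equal shares for both GR (77.8% against 27.9%) and NFIA (88.9% against 28.4%), and GR-con replicate 1 lies below it (22.2% against 31.7%).

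The GR sites near these genes in NR astrocytes were also NFIA sites. Of 61 merged sites near the 9 genes over all libraries, 18 were called in at least 2 GR libraries of NR astrocytes and 33 in at least 2 NFIA libraries of NR astrocytes. All 18 GR sites overlapped an NFIA site, and 95.3% of 12458 GR sites across the genome did. Of the 33 NFIA sites, 18 overlapped a GR site, where 50.4% of 23495 NFIA sites did. The shares near these genes were therefore close to those of the whole lists. By annotation 6 of the 18 GR sites were within 500 bp of a transcript start, 1 was in an exon, 3 in introns and 8 between genes, and for 15 the nearest protein-coding start was that of the gene itself. Of the 33 NFIA sites, 13 were at a start and for 20 the nearest protein-coding start was that of the gene.

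The heights of these peaks spread over most of each list. In NR replicates 1 and 3 the median GR fold of the peaks near the 9 genes was 6.88 and 6.82, where the medians of the lists were 6.24 and 6.63, and 11 of 19 and 17 of 34 peaks were above the list median. For NFIA in NR astrocytes 16 of 35, 21 of 37 and 21 of 36 peaks were above it. In GR-con replicate 2 it was 3 of 12. The lowest GR fold in NR replicate 1 was 2.12, 7.9 kb upstream of Nr4a1, and the highest was 14.3, at Egr1.

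**Figure D4:**
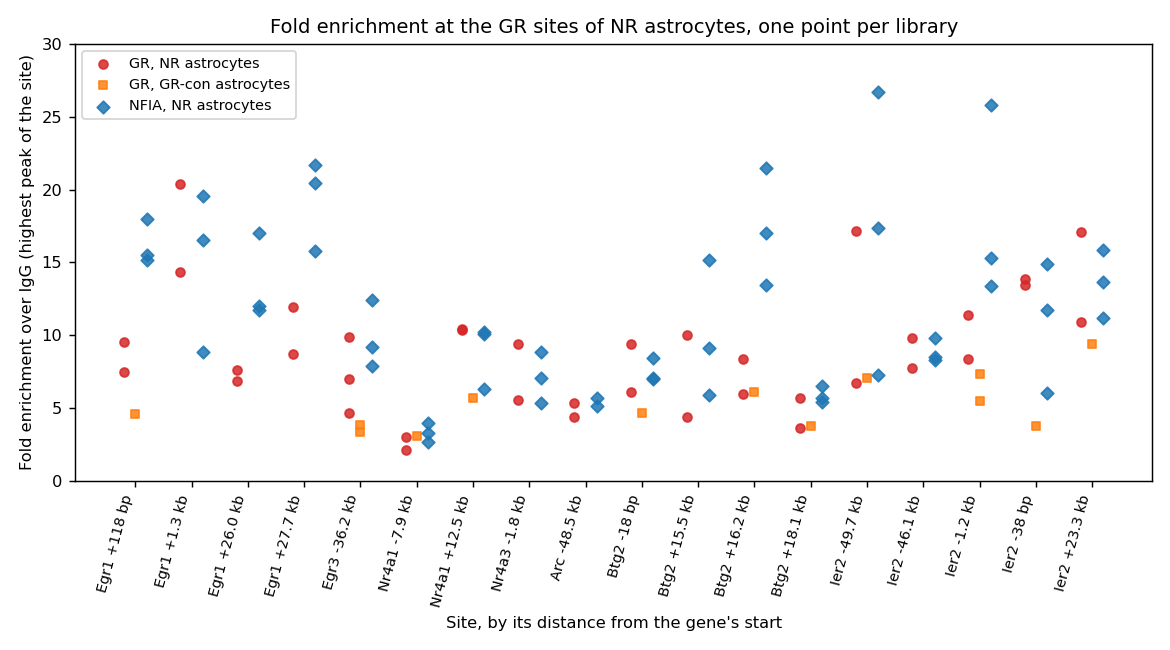
Fold enrichment over IgG (y axis) at the 18 sites called in at least 2 GR libraries of NR astrocytes (x axis, by gene and distance from its start), one point per library and the highest peak where a site holds several. GR folds reach 20.4 at Egr1 1.3 kb downstream, NFIA folds reach 26.7 at Ier2 49.7 kb upstream, and GR-con points lie between 3.05 and 9.41. Folds of different lists are not on a common scale.

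The same counts were made for 27 other activity-induced genes, among them Fos, Jun and Npas4. A GR peak in at least 2 NR libraries was found at 20 of 27 (51.4% of all genes) and an NFIA peak in at least 2 NR libraries at 23 of 27 (66.0%). In every DR library 4 of 27 were lower than in every NR library (10.6% of all genes), namely Egr4, Jund, Maff and Dusp6. In every GR-KO library 9 of 27 were lower than in every GR-con library (20.0%), where 1 of the 9 genes was. For NFIA 18 of 27 were higher in every astrocyte library than in other V1 cells (50.3%), and for GR 1 of 27, Maff, was (4.52%). Dusp6 was the 1 of 27 higher in every DEX library than in every vehicle library of both nuclei numbers (1.25% of all genes). With 250000 nuclei 9 of 27 were higher in both DEX libraries than in both vehicle libraries (9.02%), where 1 of the 9 genes was, and 10 of 27 had a peak in both DEX libraries (11.3%), where 1 of the 9 had. In ExN replicate 1, 15 of the 27 genes had a GR peak (27.9% of all genes) and 19 an NFIA peak (28.4%). Differences between the 2 sets of genes were not tested. Jun had at least 1 GR peak in every NR, GR-KO, GR-con, InN and ExN library.

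The genes whose counts followed 8 of the 9 most closely over the 39 libraries were not other activity-induced genes. Only 27 such genes were counted here among 21911, so their absence says little about the 9 genes. By Pearson correlation of log2(peaks + 1), among protein-coding genes over 200 kb away, the closest to Ier2 was Agmat (r = 0.996), to Nr4a1 Sap30l (0.993), to Nr4a3 Arhgef39 and Car9 (0.995), to Egr1 Tcte1 (0.985), to Btg2 Ddx28 (0.986) and to Egr3 Fn3k (0.946). For Egr2 the highest r was 0.935, with Mtcl1. For Nr4a2, with a peak in 3 libraries only, the closest was Rnf165 (r = 1). The libraries are shared by all of these genes and differ widely in list size, which enters every r, and the values are given as a description.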

How the data were processed

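The authors' pipeline, per the study's methods, ran cutadapt, Bowtie2 (build mm10), Picard duplicate removal, a SAMtools mapping-quality filter, a deepTools fragment filter and MACS2 against IgG, separately for every library. Deposited peaks carry a ratio (fold enrichment over the IgG background), −log10 p-values and q-values, a display score (not used) and a summit. The highest q was 0.00999 in the deposited V1 lists and 0.0498 in the 3T3 lists. Groups were therefore compared within V1 or within 3T3 only, but the correlations between genes used all 39 libraries. The lists hold no sequencing depth. Of 50 labelled samples 39 had a list, and 11 (IgG and GFP-negative) were not analysed here.

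Summits within 50 kb of each GENCODE M21 start were counted per library (Python 3.11.15, numpy 2.4.6). Mean log2(peaks + 1) was compared by exact two-sided permutation of libraries for 21911 protein-coding genes with Benjamini-Hochberg adjustment at 0.05, and a gene counted as higher or lower where libraries of the groups did not overlap. The code was tested on simulated data. Libraries are the replicates, part of their spread may be technical, and the p-values measure that spread alone. The 9 genes and all lists were chosen with earlier results of these data known. All 9 genes are named, with a selection of the sites found in 2 or more libraries of any group and a few others. Some were singled out after their values were seen. Windows are printed for the site called in most libraries of each gene and, chosen after seeing values, for sites with a motif or a DEX peak, with none from chromosome 18, and 1 other window and the closest genes to Arc are not reported here. Windows, thresholds, list lengths, single libraries and the replicate block were varied.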

Additional observations from a re-analysis of the deposited data

How the results depend on the processing

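Counts of the 9 genes depended on single libraries and on list length. For DR against NR, 1 gene was lower in every DR library, 0 with a 10 kb window, with q below 0.001 or with the top 500 peaks of each library, and 1 to 7 when leaving out each library in turn. Of all genes, 3.85% met that rule with the 10 kb window, 8.78% with q below 0.001 and 0.374% with the top 500 peaks. The share was 10.6% to 50.7% when leaving out each library. For GR-KO against GR-con, 1 gene became 3 with a 100 kb window and 0 with the top 500 peaks, with 1 to 4 when leaving out each library. Of all genes, 32.1% met the rule with the 100 kb window and 0.748% with the top 500 peaks. Leaving out each library gave 20.8% to 30.5%. For GR in NR astrocytes against other V1 cells the 0 genes higher in every NR library became 0 to 4 when leaving out each library, and the genes past an adjusted p of 0.05 likewise 0 to 4. The 4 came without NR replicate 2, where 37.9% of all genes were higher in every NR library. For NFIA the 6 genes higher in every NR library, and the 7 past an adjusted p of 0.05, both became 0 with the top 500 peaks. The cause was not tested. For DEX no alternative changed the count of 0. Of 18 shared GR and NFIA sites, 1 of 1 was left where sites had to be called in all 3 libraries. Replicate numbers are shared between groups, and the correlations below cannot tell whether they pair the libraries. With 2 libraries per group, same-numbered and other-numbered correlations are opposites by construction (0.0886 and -0.0886 for GR-KO and GR-con). List size enters the others, and GR libraries were not correlated with NFIA libraries. Correlations of same-numbered deviations ran from -0.054 to -0.004 for DR and NR and from -0.063 to 0.193 for GR in astrocytes and other V1 cells, and were 0.0886 for GR-KO and GR-con. With the replicate block, 1 gene (DR), 1 gene (GR-KO), 0 genes (GR, cell types), 6 genes (NFIA) and 0 genes (DEX) were called. Of 702 differences of single genes, 13 lost and 17 gained a call and 11 changed sign. With a 10 kb window the sign changed for GR-KO against GR-con at Egr3 (to 0.50), for GR in NR astrocytes against other V1 cells at Egr3 (to -0.22) and Arc (to -0.11), and for NFIA at Arc (to -0.29). With the top 500 peaks it changed for GR-KO at Egr3 (to 0.50) and for GR between cell types at Egr1 and Arc (both to -0.11). With peaks given only to the nearest protein-coding start it changed for GR between cell types at Egr2 and Arc (both to -0.11) and for NFIA at Arc (to -0.29). When leaving out each library it changed for GR between cell types at Egr2, without NR replicate 3 (range -0.18 to 0.33). At none of these did the groups separate without overlap, before or after the change. A region without a peak in a short list was not detected there, and the lists do not give the depth that would bound it.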
